A study of Mus musculus with 48 samples.

Results

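Htr2c encodes the serotonin receptor 5-HT2C, and all adenosines that the deposited editing tables assign to this gene were described, whatever their annotation. They were 38 of the 48715 positions listed in every table. The editing level of a site was the number of reads with the edited base over all reads covering it, and it was used where more than 100 reads covered the site. Of the 38 positions, 16 lay in the 3′ UTR, 13 were nonsynonymous, 5 were synonymous and 4 were intronic. No library had a read at 7 of them, and 26 passed the minimum in at least 1 library. Editing had been measured by mmPCR-seq, in which stretches of cDNA holding known editing sites are amplified on a microfluidic chip and sequenced, in whole brain, heart, kidney, liver, small intestine, thymus, spleen and BM (bone marrow). The animals were male C57BL/6 mice aged 12 weeks, with 3 libraries for each tissue and genotype (48 in all), described as independent biological replicates. The WT animals were Adar1+/+ Ifih1-/-, and the E861A animals were Adar1E861A/E861A Ifih1-/-. The E861A allele is a germline point mutation that removes the editing activity of ADAR1 and leaves the protein in place. Both groups therefore lacked Ifih1, which encodes the RNA sensor MDA5, and neither stands for a mouse with an intact sensor. Adar1 itself was not measured as a check of the genotypes, because the tables hold editing levels only.

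A-to-I editing turns an adenosine of double-stranded RNA into inosine, which the ribosome and the sequencer read as guanosine. It is carried out by ADAR1 and ADAR2, which have overlapping targets. In Htr2c an exon pairs with the intron that follows it, and editing of the exon side rewrites codons of an intracellular loop of this G protein-coupled receptor. The edited receptors couple less well to their G protein than the unedited form. The 5 known recoding sites are called A, B, E (also C′), C and D, in that order along the transcript. A and B lie in the same isoleucine codon, and E and C lie in the same asparagine codon. D lies in the next isoleucine codon, the last of the edited stretch.

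In mm9, the gene (ENSMUSG00000041380.6) spans chrX:143397056-143631820 on the plus strand, and the transcript Htr2c-001 has 7 exons. The recoding sites lie in the coding part of exon 6, chrX:143604113-143604313. In the transcripts Htr2c-003 and Htr2c-006 this exon ends at position 143604218, upstream of all 5 sites. The stretch chrX:143604221-143604250 is shown first because its 5 capitals are, from left to right, A (143604229, Ile to Val), B (143604231, Ile to Met), E (143604235, Asn to Asp), C (143604236, Asn to Ser) and D (143604241, Ile to Val). The second stretch, chrX:143604347-143604376, lies in the intron and held the predicted partners of B, E, C and D, in capitals, and of 22 of the 30 coding bases in all. The last, chrX:143630221-143630250, holds in capitals the only position outside the cluster that passed the limit of 1% edited in brain (143630236). It lies in the 3′ UTR part of exon 7.
coding cluster: atgtagcaAtAcgtAAtcctAttgagcata
intron partner: atgctcaaTaccttcggaTTatgTactgtg
3′ UTR site: aaggactaccgaattAggcccttagaatgt
In the predicted fold of a window of 251 bases around the cluster (-88.1 kcal/mol), 29 of the 30 bases of the coding stretch were paired with the intron. The partners began 33 bases and ended 133 bases into the intron, beyond the stretch shown. The unpaired base was site A, for which no partner was predicted. B, E, C and D were each opposite a T of the genome. The base before the edited adenosine was A at sites A and C and T at B, E, D and the 3′ UTR site.

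By the limit of 1% used here, editing of Htr2c was seen at 6 positions of the brain. At A and B, most reads were edited in WT and few in E861A. At E and C, the levels of the genotypes overlapped. At D, the level was higher in E861A than in the 2 WT libraries that could be measured, and the 3′ UTR site was lower in every E861A library. None of these differences passed the adjusted threshold in the fit over the brain libraries, in which no site of any gene was called. The remaining 20 positions over the minimum in brain stayed near 0. Reads came from whole brain, so a change in the level within a cell cannot be told apart from a change in which cells contributed the transcript.

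**Figure D1:**
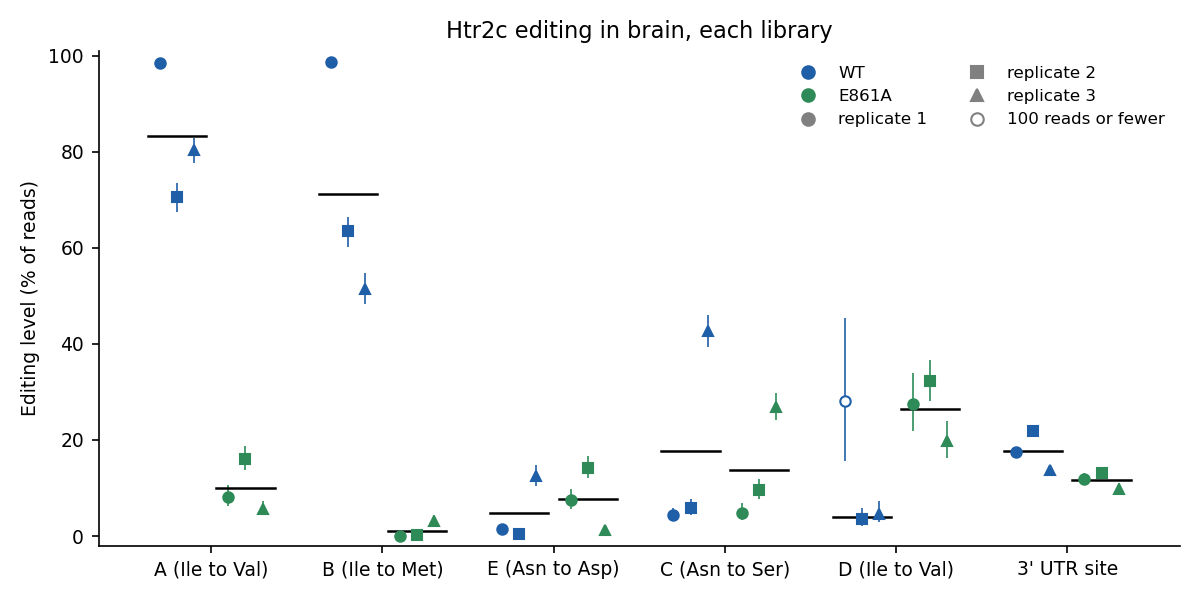
Editing level (% of reads) of the 6 edited Htr2c sites in each brain library, WT in blue and E861A in green, with Wilson 95% intervals that cover counting error only and a black line at the mean of the libraries with more than 100 reads. A and B fall from means of 83.2% and 71.2% in WT to 9.97% and 1.10% in E861A, while D is the one site of the cluster where all E861A libraries lie above the 2 measured WT libraries.

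Site A, the first of the cluster, changes Ile to Val. It was edited in 98.5%, 70.6% and 80.4% of reads in WT replicates 1, 2 and 3, at coverages of 1277, 894 and 902 reads. The E861A libraries had 8.20%, 16.1% and 5.64%, at 610, 846 and 1046 reads. The lowest WT library was far above the highest E861A library. WT averaged 83.2% ± 14.2 and E861A 9.97% ± 5.44 (SD, n = 3 each), so 12.0% of the WT level was retained. Site B changes the same codon to Met when A is unedited. It was edited in 98.6%, 63.4% and 51.5% of reads in WT, and in 0, 2 and 32 reads of 617, 860 and 1042 in E861A, which is 0%, 0.233% and 3.07%. The count of 0 allows a level of up to 0.486%. The genotypes did not overlap, with means of 71.2% ± 24.5 and 1.10% ± 1.71 (SD, n = 3 each), and 1.55% of the WT level was retained.

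On the log2 scale of (level + 0.01)/(1 - level + 0.01), A was lower in E861A by a change of -6.01 (SE 1.16; 95% interval -8.82 to -3.20; limma adjusted p = 0.130). The change at B was -7.94 (SE 1.51; interval -11.6 to -4.29; limma adjusted p = 0.130). Over the 808 edited brain sites, limma called 0% lower and 0% higher, while an unadjusted p under 0.05 was held by 39 lower sites (4.83%) and 17 higher ones (2.10%). B and A ranked 9 and 10 of the 808 by p. Non-overlapping lower values were held by 11.6% of the 808 sites. In a fit over all 48 libraries, A and B were called lower (adjusted p = 0.00819 and 0.00806), as were 15.3% of all brain sites, and 11.5% were called higher. No library outside brain passed the minimum at A or B, so their own spread still came from the brain libraries. Only the spread borrowed from other sites differed from the main fit. Under a one-way F test with an unadjusted p under 0.1 and levels at least 0.05 apart, A, B and the 3′ UTR site were called lower and D higher, beside 5.69% of the 808 sites called lower and 2.10% called higher.

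Sites E and C sit side by side in the asparagine codon, 6 and 7 bases after A. E (Asn to Asp) was edited in 1.49%, 0.357% and 12.5% of reads in WT and in 7.52%, 14.2% and 1.19% in E861A. C (Asn to Ser) was edited in 4.48%, 5.85% and 42.6% in WT and in 4.75%, 9.56% and 26.8% in E861A. At both sites the genotypes overlapped, and at C replicate 3 of each genotype was well above the other libraries. The means of E were 4.78% ± 6.70 in WT and 7.65% ± 6.52 in E861A, and those of C were 17.7% ± 21.6 and 13.7% ± 11.6 (SD, n = 3 each). The log2 change was 0.93 at E (SE 1.26; 95% interval -2.13 to 3.98; limma adjusted p = 0.753; 0.19 to 1.94 with a library left out) and -0.08 at C (SE 1.26; interval -3.12 to 2.96; limma adjusted p = 0.992). These intervals leave room for a several-fold change either way. The change at C was 1.10 without WT replicate 3, 0.52 without E861A replicate 1 and 0.05 without E861A replicate 2, so its direction is not settled.

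Site D, 12 bases after A, changes the last isoleucine of the stretch to Val. It was edited in 14 of 402 and 17 of 369 reads in WT replicates 2 and 3 (3.48% and 4.61%), and in 27.5%, 32.2% and 19.9% of 204, 469 and 403 reads in E861A. The measured libraries of the genotypes did not overlap, as was so in the higher direction for 8.42% of the 808 sites. WT replicate 1 was below the minimum, with 9 of 32 reads edited (28.1%), a level within the E861A range. The means were 4.04% ± 0.795 (SD, n = 2) and 26.5% ± 6.23 (SD, n = 3), and with all 3 WT libraries the WT mean was 12.1% ± 13.9. The log2 change was 2.81 (SE 0.71; 95% interval 1.01 to 4.62; limma adjusted p = 0.282; rank 28 by p), from a fit that omitted WT replicate 1.

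Coverage fell between C and D. The coverage at D was 2.66%, 50.1% and 43.9% of that at C in the WT libraries and 34.6%, 59.0% and 41.9% in the E861A libraries. The next listed position, 9 bases further on, was read 1, 11 and 14 times in WT and at least 134 times in each E861A library. The reads at that position were in number 3.13%, 2.74% and 3.79% of the reads at D in WT and 67.6%, 30.5% and 33.3% in E861A, with no overlap between the genotypes. If all of them also covered D, were set aside and had been edited at D, the level would have been 0%, 2.45% and 0% in E861A. If none of them had been edited, it would have been 84.8%, 46.3% and 29.7%. Coverage at A, B, E and C was 589 to 1279 reads, with overlapping genotypes, and the same reads may cover these sites too. With as many reads set aside at A, the highest possible level in E861A would have been 10.6%, 19.3% and 6.47%, and the lowest possible level in WT 98.5%, 70.2% and 80.1%. At B the same limits would have been 0%, 0.279% and 3.52% in E861A and 98.6%, 62.9% and 50.7% in WT. At both sites the E861A libraries would thus still have been below the WT libraries. At E the possible levels in E861A would have been 0% to 9.65%, 0% to 17.1% and 0% to 1.37%, and at C they would have been 0% to 6.21%, 0% to 11.7% and 15.0% to 31.2%. The levels at E and C in E861A were thus not bounded away from 0, apart from C in replicate 3, and the orders of sites and codon shares that use them hold only for all reads together. The tables do not say whether the reads past D came from the same amplicon as the others. Positions of exon 5, described with the listed adenosines, were also covered in E861A alone. The part of this difference in the results at the 5 sites was not tested.

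**Figure D2:**
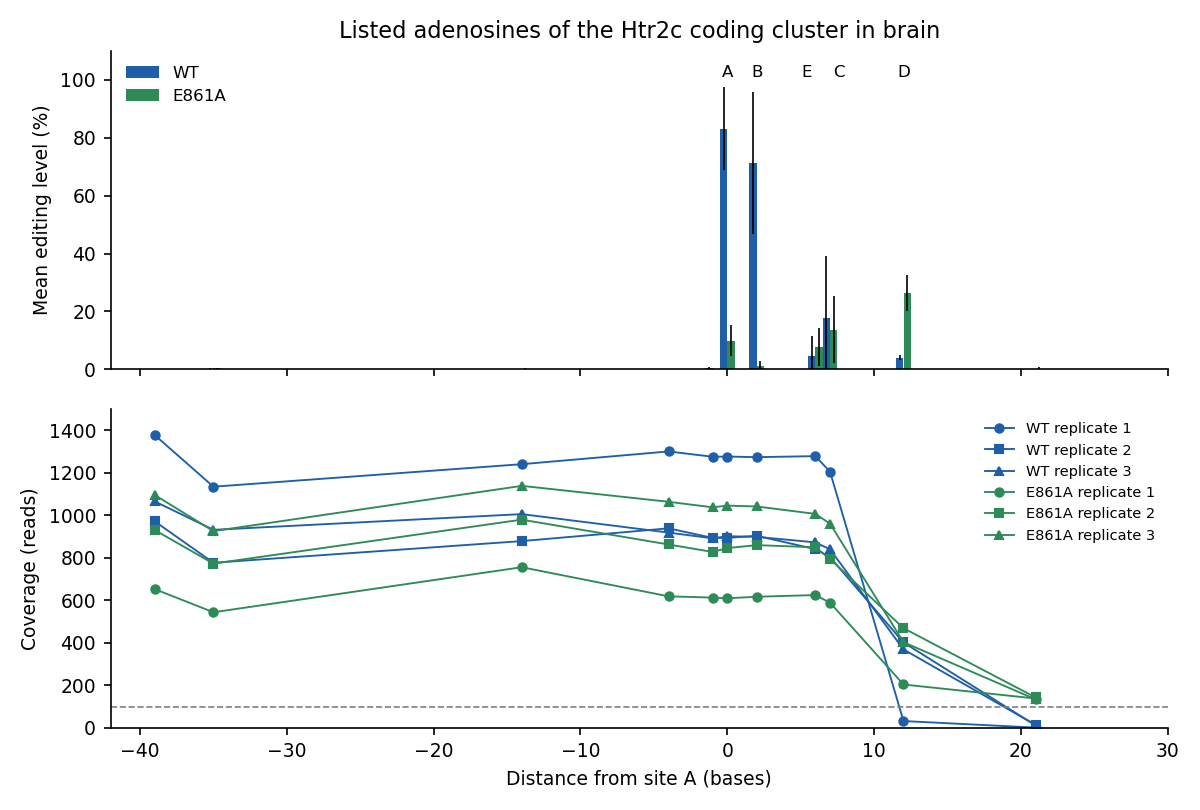
Upper panel, mean editing level (%) at the listed adenosines of exon 6 in brain against distance from site A in bases, with bars for WT (blue) and E861A (green) and lines for the SD over libraries with more than 100 reads. Lower panel, coverage in reads of each of the 6 libraries, with a dashed line at the minimum of 100 reads. Adenosines beside the 5 recoding sites are near 0, and coverage falls between C and D, to 32 reads in WT replicate 1.

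The listed adenosines around the cluster were not edited above 1%. Including the 6 edited sites, 23 Htr2c positions passed the minimum in 2 or more brain libraries of each genotype. The other 17 of these ranged from 0% to 0.895% over 102 library values, with a median of 0.0876% and with 22 values at 0. They comprised 5 positions of exon 6, 4 coding positions of exon 7 and 8 positions of the 3′ UTR. The highest value, 0.895%, came from WT replicate 2 at position 143604228, a synonymous adenosine in the base next to A and preceded by C, where the other 5 libraries had at most 0.112%. In exon 5 the positions 143510550 and 143510560, like 143604250 after D, passed the minimum in E861A alone. At 143510550 there were 117, 118 and 103 reads in E861A and 0, 1 and 12 in WT. The highest level at these 3 positions was 2 of 118 reads (1.69%, Wilson 95% interval 0.466 to 5.97), and the WT libraries had too few reads there to compare.

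The levels of single sites set limits on the codons, although the tables do not say which edits shared a read. Because A alone decides whether the first residue is Val, that residue was Val in the share of reads edited at A. The unedited first residue, Ile, was possible in at most 1.41%, 29.4% and 19.6% of reads in the WT libraries. These shares are of reads over the sites, so they leave out the transcripts whose exon ends upstream of A, and they carry no counting or PCR error. In E861A it held 91.8%, 83.7% to 83.9% and 91.3% to 94.4%. At the middle residue, the unedited Asn held 94.0% to 95.5%, 93.8% to 94.1% and 44.9% to 57.4% in WT, and 87.7% to 92.5%, 76.2% to 85.8% and 72.0% to 73.2% in E861A. The middle residue was thus mostly unedited in both genotypes, apart from WT replicate 3. The share unedited at A, B, E and C together was at most 1.41%, 29.4% and 19.6% in WT and at least 79.5%, 59.9% and 63.2% in E861A. Its possible ranges did not overlap between genotypes.

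**Figure D3:**
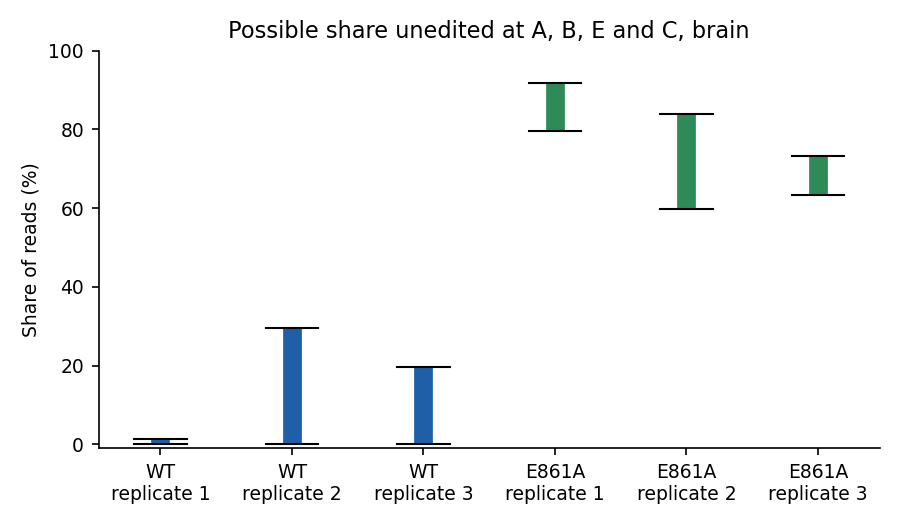
Possible share of reads over the sites (%) unedited at A, B, E and C together in each brain library, as bars from the lowest to the highest share that the 4 site levels allow, WT in blue and E861A in green. The highest WT bound is 29.4% and the lowest E861A bound is 59.9%.

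Averaged over A, B, E and C, the sites over the minimum in all 6 libraries, the editing level was 50.8%, 35.0% and 46.7% in WT and 5.12%, 10.0% and 9.19% in E861A. The lowest WT library was above the highest E861A library. The mean difference was -36.1 percentage points, from 44.2% ± 8.17 to 8.11% ± 2.63 (SD, n = 3 each). A two-sided exact permutation test gave p = 0.1, the smallest value that 3 libraries against 3 allow. Without WT replicate 1, the library with the highest levels at A and B, the difference over these 4 sites was -32.8 points. Since D then passed the minimum in all remaining libraries, it was -21.7 points with D as a member of the mean.

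Whether neighbouring adenosines depended on ADAR1 to different degrees was tested on the difference between both sites within each library, on the log2 scale above, so that a shift common to both sites cancels. All 1418 pairs of edited sites of one gene at most 50 bases apart were tested in brain, and these included 10 pairs of the Htr2c cluster. Limma called 0 pairs of any gene (0%), and 8.18% had an unadjusted p under 0.05. The pair of A and D had the smallest p of all 1418 pairs. D was lower than A by log2 differences of -5.68 and -6.08 in WT replicates 2 and 3, and higher than A by 1.96, 1.26 and 1.88 in the E861A libraries. Over all reads, the order of the sites was therefore opposite in the genotypes, and the genotype effects differed by 7.58 (SE 0.80; 95% interval 5.56 to 9.61; limma adjusted p = 0.236). With the reads past D set aside, D could be as low as 0%, 2.45% and 0% in E861A, and A as high as 10.6%, 19.3% and 6.47%. That order would then be sure in no E861A library. The pair of B and D was next by p, with effects differing by 9.11 (SE 1.19; interval 6.09 to 12.1; limma adjusted p = 0.236). Both pairs rest on 2 WT libraries and on the coverage at D. The pair of A and D was called with no limit on the editing level of tested sites (adjusted p = 0.0416), with an offset of 0.05 (0.0494) and with untransformed levels (0.0229). It was also called when the minimum was lowered to 30 reads, so that WT replicate 1 was included (0.0380), a setting chosen after seeing the data. Called pairs of other genes were not counted under these settings, so these calls do not show whether A and D stand out.

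The effects at A and B also lay below those at E and C, by log2 values of 6.94 (A and E, SE 1.57), 5.93 (A and C, SE 1.96), 8.87 (B and E, SE 2.27) and 7.86 (B and C, SE 2.18). The 95% intervals of these 4 differences did not include 0, and the limma adjusted p-values were 0.276, 0.460, 0.317 and 0.328. E was below A within every library of both genotypes, with differences from -10.6 to -4.69 in WT and from -1.67 to -0.12 in E861A. C was below B in all WT libraries and above B in all E861A libraries, by 2.59, 3.24 and 3.18, but with the reads past D set aside this order would have been sure in E861A replicate 3 alone. The other 2 of these 4 pairs went both ways in E861A. C was lower than A in all WT libraries, and in E861A the difference C minus A was -0.73, -0.80 and 2.43. E was lower than B in all WT libraries, and in E861A the difference E minus B was 3.20, 3.84 and -0.92. For the sites that share a codon, differences in genotype effect were smaller and their intervals included 0. The change at B was more negative than that at A by a value of -1.93 (interval -4.64 to 0.78; limma adjusted p = 0.753), and on untransformed levels this sign turned, to 0.0313. The difference between C and E was -1.0 (interval -4.49 to 2.48; limma adjusted p = 0.881). D differed from E by 2.17 (interval -1.17 to 5.52) and from C by 3.57 (interval -0.24 to 7.38).

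**Figure D4:**
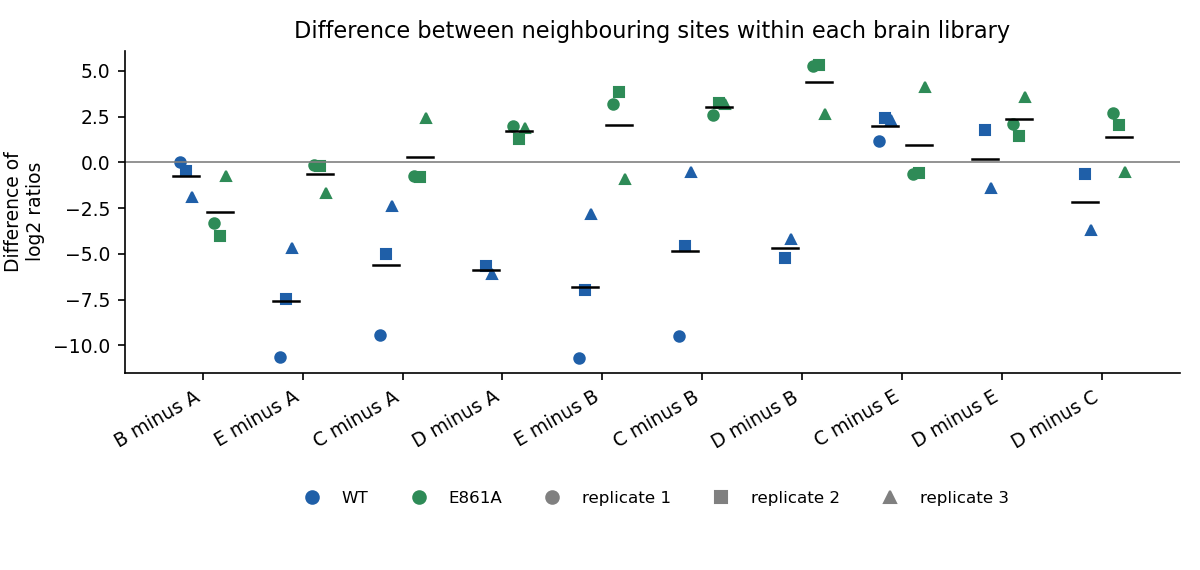
Difference between the log2 ratios of 2 Htr2c sites within each brain library (vertical axis, log2 units), for the 10 pairs of the cluster, WT in blue and E861A in green, with a black line at each mean. Differences between A or B and the 3 sites after them are mostly below 0 in WT and around or above 0 in E861A, and D minus A runs from -5.68 and -6.08 in WT to 1.26 and above in E861A.

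The spread between replicates exceeded the counting error of a share at almost every site. At A the SD was 12.0 times that error in WT and 5.16 times in E861A, and at C it was 18.8 and 10.2 times. The exception was D in WT (0.790 times, n = 2). PCR reads without molecular identifiers are not independent molecules, so the intervals here cover counting error only. WT replicate 1 held the extreme of the cluster, with A and B almost fully edited, E and C low and D hardly read.

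The 3′ UTR site, 26007 bases downstream of A in the genome, was the one edited Htr2c site over the minimum both in brain and elsewhere. In brain it was edited in 17.4%, 21.9% and 13.7% of 6338, 6553 and 5006 reads in WT and in 11.9%, 13.0% and 9.82% of 3413, 3432 and 2648 reads in E861A. All E861A libraries were below all WT libraries, as was so at 11.6% of the 808 edited brain sites, and the gap between WT replicate 3 and E861A replicate 2 was narrow. The means were 17.7% ± 4.12 and 11.6% ± 1.63 (SD, n = 3 each), so 65.5% of the WT level was retained, and the log2 change was -0.66 (SE 0.57; 95% interval -2.05 to 0.73; limma adjusted p = 0.701). In WT its level was near the mean of C and below A and B. Coverage of the site was also lower in all E861A brain libraries than in all WT ones, and its part in the result was not tested. The other covered 3′ UTR adenosines, from 23 bases before to 131 after, stayed at or below 0.633% in every brain library. The one 23 bases before had 0.0627%, 0.512% and 0.633% in WT and 0.0875%, 0.0578% and 0.0376% in E861A. WT replicate 1 was thus within the E861A range, and the position was below the limit and not tested in the main fit.

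Outside the brain, reads of Htr2c over the minimum came almost entirely from the 3′ UTR. In 26 of 42 libraries the edited 3′ UTR site had more than 100 reads, between 139 and 2808. The only other position outside the 3′ UTR over the minimum was the synonymous 143628319 of exon 7, with 0 of 116 reads edited in heart WT replicate 3. The 3′ UTR site was edited in 0% to 1.73% of reads in 11 WT libraries, with a median of 0.193%, and in 0% to 0.332% in 15 E861A libraries, with a median of 0.0695%. The highest value came from thymus WT replicate 1, with 14 of 807 reads (1.73%, Wilson 95% interval 1.04 to 2.89). Thymus WT replicate 3 had 2 of 1038 reads (0.193%). In the kidney 0 reads were edited in any of the 4 libraries over the minimum, and the Wilson 95% interval of the deepest (439 reads) reaches 0.867%. In spleen, the only tissue besides brain with all 6 libraries over the minimum, the WT libraries had 0.344%, 0.132% and 0.105% and the E861A libraries 0.260%, 0.0716% and 0.246%, which overlapped. No Htr2c site met the limit of 1% in a tissue outside brain with enough libraries, so none was tested between genotypes there. Among the other 3′ UTR positions outside brain, the highest value was 2 of 129 reads (1.55%).

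Every covered library outside the brain was below every brain library at the 3′ UTR site. On the log2 scale, with p adjusted over all sites covered in both tissues, the level was lower than in brain in WT spleen by a change of -4.23 (SE 0.52; limma adjusted p = 0.0372; 1.85% of sites called lower). In E861A it was lower in spleen (-3.57, adjusted p = 0.00310; 4.38% called lower), thymus (-3.79, 0.00320; 4.57%), heart (-3.63, 0.00691; 3.40%), BM (-3.66, 0.0183; 4.24%) and kidney (-3.82, 0.0300; 3.06%). Past the threshold were thus 6 of 9 comparisons with enough libraries. The other 8 covered 3′ UTR positions were tested in the same fits and called in none. This site was looked at because it was edited in brain, so its lower level elsewhere is a description and the calls add no support. The sizes depend on the offset, since the levels outside brain were near 0, and for WT spleen they were -6.26 with an offset of 0.001 and -2.38 with 0.05. In WT kidney (-4.48, adjusted p = 0.0541; 1.26% called lower), heart (-4.10, 0.163; 0.0265%) and thymus (-3.61, 0.213; 1.24%) the threshold was missed, with 2 libraries in each of these groups. The WT spleen call was lost without any one of the replicates (adjusted p = 0.133 to 0.245), as was that of E861A heart (0.0757 to 0.128). The calls were also lost without replicate 2 or 3 in E861A spleen (0.0646 and 0.0742) and thymus (0.0679 and 0.0829), without replicate 2 in kidney (0.104) and without replicate 3 in BM (0.0744). All 6 were lost with the replicate number as a block (0.118 to 0.378). These comparisons share the brain libraries. The site passed the limit on edited sites through brain alone, so its difference in genotype change from brain is given as a value, from which nothing is read. It was 0.66 in both spleen and kidney, where the levels were near or at 0 in both genotypes and the value only restates the brain change. In heart it was 0.47 and in thymus -0.18. Limma called the site in none of these 4 fits (adjusted p = 0.632 to 0.950), in which it called 1.77% of all sites (spleen), 1.76% (kidney), 0.231% (heart) and 0.454% (thymus).

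**Figure D5:**
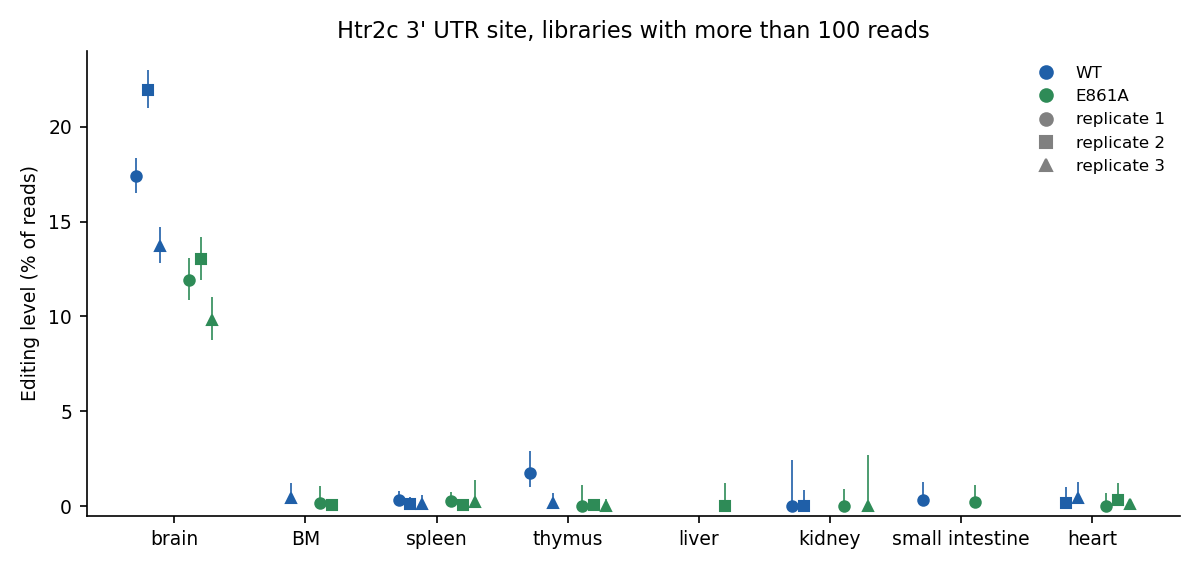
Editing level (% of reads) of the Htr2c 3′ UTR site in each library with more than 100 reads, by tissue, WT in blue and E861A in green, with Wilson 95% intervals. Brain libraries lie between 9.82% and 21.9%, and the highest library of any other tissue is thymus WT replicate 1 at 1.73%.

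The recoding cluster was hardly read outside the brain. Summed over the 21 WT libraries of the other tissues, 8 of 15 reads were edited at A, 7 of 14 at B, 0 of 13 at E, 8 of 15 at C and 7 of 14 at D. Over the 21 E861A libraries, 7 of 12 reads were edited at A, 2 of 11 at B, 2 of 10 at E, 6 of 12 at C and 5 of 12 at D. No library had more than 4 reads at any of these sites, so these counts give no editing level and no comparison of tissues or genotypes.

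Other recoding sites of neuronal receptors and channels were set beside the cluster, from a list of 18 genes of which 10 had edited recoding sites to test in brain. Limma called 0 of these 17 sites in either direction, and 0 had an unadjusted p under 0.05. The mean was lower in E861A at 6 of the 17, and the median difference was 0.219 percentage points, beside -0.838 over all edited brain sites. Non-overlapping values were held by 2 of the 17 in the lower and 1 in the higher direction, near the 11.6% and 8.42% of all edited brain sites. The lower ones were Unc80, part of a sodium leak channel complex (36.0% in WT and 21.6% in E861A, the largest fall in mean), and the Arg to Gly site of Gria2, an AMPA receptor subunit (73.9% and 68.6%). Kcna1, a potassium channel subunit, had non-overlapping higher values (35.2% and 48.3%). The largest rise in mean was at Gabra3, a GABA-A receptor subunit (72.2% and 86.4%), with overlapping genotypes and a log2 change in the fit of the other sign (-0.09, SE 1.96). The differences in mean at A and B, -73.2 and -70.1 percentage points, were larger than the -14.4 points at Unc80.

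By the root mean square difference in level over the 6 brain libraries, the site most like both A and B was position 125936975 of chromosome 5 in the 3′ UTR of Bri3bp, at 21.0 and 16.0 percentage points. Its mean level was 58.0% in WT and 12.1% in E861A. Next was a 3′ UTR site of Fbxl17 for A (25.5 points) and an intergenic site at position 39980697 of chromosome 17 for B (16.4 points). For E they were 3′ UTR sites of Pkd2 (2.92 points) and 2610002M06Rik (3.35 points), and for C an intronic site of Taz (7.37 points) and a 3′ UTR site of Chka (9.88 points). For D, over the 5 libraries where it was measured, they were a 3′ UTR site of Cdk7 (7.03 points) and an intronic site of Adarb1 (8.51 points). For the Htr2c 3′ UTR site they were a 3′ UTR site of Rpa1 (3.83 points) and the noncoding RNA uc007hsx.1 (4.00 points). Only sites of other genes entered this comparison, and likeness of level here is a description without a test.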

How the data were processed

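Editing was measured by mmPCR-seq. For each library the authors deposited a table that gives, at each known site, a read count, how many reads were edited, and their fraction. The submitters' processing notes name STAR, SAMtools and mm9, with no versions. The fraction was recomputed from the deposited counts. A site was tested where each genotype had 2 replicates over 100 reads and the reads of these, summed by genotype, gave a level above 0.01 in WT or E861A. Genotypes, tissues and within-library differences between sites were tested in R 4.3.3 with limma 3.58.1. Levels were taken as log2((level + 0.01)/(1 - level + 0.01)). Adjustment over all sites or pairs followed Benjamini-Hochberg, and the threshold was 0.05. The trend option of eBayes was used for sites and not for pairs. The study's own criterion was an alternative, as were other coverage minimums, edited limits, offsets, a quasi-binomial model, a fit over all 48 libraries, and replicates left out in turn.

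Liver is missing from the tissues in the description of the assay, while the labels and the list of the study's data include it, so it was kept. Coverage summed over the listed positions was 1861831 to 11394093 per library, where a read over several positions counts more than once. The joined tables of the whole series were not used. Htr2c, the receptor list and all tests were chosen with earlier results of these data known. Every Htr2c position was described, and other genes were named as the 2 sites closest in level to each edited Htr2c site and from the receptor list, with its counts, its non-overlapping sites (named after their values were seen) and its largest fall and rise. The limma tests of genotype, pairs, tissue and interaction, the quasi-binomial model and the F test were run on simulated data made from these counts. The permutation test and the fit over all 48 libraries were not. The spread between replicates was set in the simulation, so its outcome does not show how the tests perform at the spread seen here. Annotation was gencode vM1, and folds were predicted with RNAfold 2.7.2 on the reference sequence. Python 3.11.15 was used with statsmodels 0.14.6, scipy 1.17.1, numpy 2.4.6, pandas 2.3.3 and, for plots, matplotlib 3.10.9.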

Additional observations from a re-analysis of the deposited data

How the results depend on the processing

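With 3 libraries per group, 393 of the values recomputed under another setting were kept. Of the others, 24 lost a call, 12 gained a call, 7 changed direction and 8 moved. A tested value was kept with its direction and side of the threshold, a count when unchanged, and the recoding mean within the larger group SD. The 393 hold 19 counts of 0 outside brain, where no Htr2c site was tested in the main fit. The others follow, and the cause was not tested. Calling sites on a one-way F test (unadjusted p below 0.1, levels 0.05 apart) gave 3 Htr2c sites lower (A, -0.732 in level; B, -0.701; the 3′ UTR site, -0.0611; 5.69% of all edited brain sites) and 1 higher (D, 0.225; 2.10% of all). A fit over all 48 libraries called 2 lower (A, log2 change -6.01; B, -7.94). The change at C ran from -0.80 to 1.10 with a replicate left out, and was 0.52 and 0.05 without E861A replicates 1 and 2. Among pairs of the edited Htr2c sites, only A and D became called. The settings were no edited limit (7.58), an offset of 0.05 (6.34) and untransformed levels (0.880 in level). A minimum of 30 reads (7.84), chosen after seeing the data, gave the same call. Pairs of other genes called under these settings were not counted. The pair of A and B turned to 0.0313 on untransformed levels. The mean over the recoding sites differed by -40.6 to -21.7 points with a replicate left out, where -21.7 (without WT replicate 1) is over A, B, E, C and D. Over A, B, E and C, a choice made after seeing the data, that value was -32.8, the smallest of the 6.

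At the 3′ UTR site, an offset of 0.001 brought WT kidney (-7.73) and WT heart (-5.78) against brain past the threshold. An offset of 0.05 and untransformed levels lost E861A kidney (-1.89 and -0.116), E861A BM (-1.86 and -0.115) and WT spleen (-2.38 and -0.175). With a replicate left out, calls were lost in at least 1 case each, over values of -3.73 (E861A kidney), -3.78 (E861A BM), -4.37 to -4.0 (WT spleen), -3.72 to -3.40 (E861A spleen), -3.73 to -3.51 (E861A heart) and -3.89 to -3.73 (E861A thymus). The difference from brain in genotype change turned in heart with an offset of 0.001 (-0.20) and in thymus with an offset of 0.05 (0.29) and untransformed levels (0.0517).

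Samples with the same replicate number did not deviate together (correlations 0.0273, 0.0112 and 0.0848 over 631 brain sites between genotypes, and -0.0964 to 0.0704 between brain and each other tissue within a genotype). The labels do not say whether same-numbered tissues came from the same mouse, so the samples were taken to share only a number. With the replicate block, no brain genotype or pair call changed, and the tissue calls were lost in E861A kidney (-3.73, adjusted p = 0.353), BM (-3.78, 0.351), spleen (-3.57, 0.131), heart (-3.63, 0.211) and thymus (-3.79, 0.118) and in WT spleen (-4.23, 0.378).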
